A study of Mus musculus with 8 samples.

Results

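Most stretches of the genome in which CpGs lie close together are free of methylation. The minority examined here are densely spaced CpG clusters that are nevertheless methylated in control neural progenitor cells (NPCs). A cluster was taken as a run of 10 or more listed autosomal CpGs with no gap over 50 bp between neighbours, and it was a member when its mean level over the 2 shScr BS libraries was above 70%. Of 16328 such dense runs, 765 were members, and they held 9685 of the 602684 autosomal CpGs covered by 10 or more calls in every one of the 8 libraries. The shScr BS level therefore chose the members and is not a result.

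The NPCs came from mouse ES cells (A2lox.cre) engineered to express an shRNA upon doxycycline addition. The shRNA was either a Scrambled control (shScr) or directed against Tet3 (shTet3, the Tet3-2 shRNA), and both groups received 2 µg/ml doxycycline for 5 days. Each shRNA had 2 replicates, and 100 ng of DNA from each replicate, cut with MspI, was split into a BS library, where C calls stand for 5mC plus 5hmC, and an oxBS library, where they stand for 5mC alone. The values are the percent of calls read as C at each CpG. These libraries hold no RNA, so neither Tet3 transcript nor NPC markers could be checked in them. Nothing in the labels says whether replicates were separate cultures. The main q values, by which runs and CpGs are called below, cover counting error only. Other p-values measure at most the spread between these libraries. Bulk DNA cannot tell a lower level in every cell from a loss in some of the cells.

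In mammals, DNA methyltransferases place 5mC mainly at CpGs, and the TET enzymes, TET3 among them, oxidise it to 5hmC and further forms. CpG islands at promoters are usually kept unmethylated, while CpGs inside transcribed gene bodies are usually methylated. Promoters of germline genes and the differentially methylated regions of imprinted genes are well-known CpG-dense sequences that carry methylation in somatic cells.

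A few members show what such a cluster looks like. All are on the forward strand of mm9 (NCBIM37), and the capitals mark the CpGs listed in all libraries. The first 3 are the runs of Mypn and near Ttll7, at which 5mC fell furthest, and the central 300 bases of the run with the most CpGs, in a coding exon of Cux2.
Mypn coding exon, chr10:62584686-62584838: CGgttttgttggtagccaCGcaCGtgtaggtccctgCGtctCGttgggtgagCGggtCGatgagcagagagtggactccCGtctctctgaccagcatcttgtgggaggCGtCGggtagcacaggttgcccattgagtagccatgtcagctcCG
intergenic, nearest protein-coding gene Ttll7, chr3:146776079-146776212: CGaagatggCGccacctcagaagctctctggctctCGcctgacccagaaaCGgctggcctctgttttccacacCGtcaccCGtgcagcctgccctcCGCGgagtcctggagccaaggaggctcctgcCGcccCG
Cux2 coding exon, chr5:122319172-122319471: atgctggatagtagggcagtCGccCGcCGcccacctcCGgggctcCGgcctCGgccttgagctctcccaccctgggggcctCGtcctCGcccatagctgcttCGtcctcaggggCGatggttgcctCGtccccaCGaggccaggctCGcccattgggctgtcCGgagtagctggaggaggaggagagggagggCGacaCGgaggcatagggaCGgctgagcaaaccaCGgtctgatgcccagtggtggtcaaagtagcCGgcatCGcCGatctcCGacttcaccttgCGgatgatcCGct

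The next are the only 2 runs called higher after knockdown, in Zfp787 and Hs3st3b1, followed by the second Zfp787 run, which begins 54 bp further on in the same exon and was not called.
Zfp787 coding exon, run called higher, chr7:6084028-6084205: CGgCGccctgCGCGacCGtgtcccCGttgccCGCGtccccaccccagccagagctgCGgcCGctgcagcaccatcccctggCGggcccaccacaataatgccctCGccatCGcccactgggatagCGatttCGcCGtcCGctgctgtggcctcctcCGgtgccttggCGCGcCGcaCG
Hs3st3b1 coding exon, chr11:63702684-63702765: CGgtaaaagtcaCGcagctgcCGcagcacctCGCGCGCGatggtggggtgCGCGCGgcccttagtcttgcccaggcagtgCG
Zfp787 coding exon, neighbouring run, chr7:6084260-6084516: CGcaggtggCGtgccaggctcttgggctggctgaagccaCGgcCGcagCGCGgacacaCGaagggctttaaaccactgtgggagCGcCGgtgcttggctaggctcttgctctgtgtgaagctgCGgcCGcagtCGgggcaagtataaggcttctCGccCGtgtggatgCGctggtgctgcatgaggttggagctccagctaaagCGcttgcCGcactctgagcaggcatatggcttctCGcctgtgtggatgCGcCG

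The last 2 are the Zfp777 run, at which the oxBS level moved least, and one of 3 runs in coding exons of Tet3, the gene that the shRNA targets.
Zfp777 coding exon, chr6:47974760-47974950: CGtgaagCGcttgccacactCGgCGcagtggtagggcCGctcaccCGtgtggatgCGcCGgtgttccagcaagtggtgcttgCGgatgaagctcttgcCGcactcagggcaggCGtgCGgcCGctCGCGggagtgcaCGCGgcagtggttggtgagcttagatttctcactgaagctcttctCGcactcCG
Tet3 coding exon, chr6:83354523-83354684: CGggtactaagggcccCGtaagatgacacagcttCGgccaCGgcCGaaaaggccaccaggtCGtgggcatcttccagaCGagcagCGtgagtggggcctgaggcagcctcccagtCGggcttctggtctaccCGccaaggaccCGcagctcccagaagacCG

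Methylated dense runs carried less 5mC in both shTet3 libraries than in either shScr library. The mean oxBS level over the 765 runs was 75.9% and 86.4% in the shScr libraries and 65.8% and 68.1% in the shTet3 libraries. The groups did not overlap, although the shScr libraries themselves lay 10.5 points apart. Mean levels were 81.2% ± 7.46 in shScr and 66.9% ± 1.63 in shTet3 (SD, n = 2 each), a difference of −14.2 points, and the two-sided exact permutation test gave p = 0.33, the smallest that 2 libraries against 2 allow. Against shScr replicate 1 alone the difference was −8.94 points, and against shScr replicate 2 alone it was −19.5 points.

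The remaining dense runs moved less. Over the 13344 dense runs under 10% in shScr BS the mean oxBS level was 0.925% in shScr and 0.740% in shTet3, and over the 2219 runs from 10% to 70% it was 30.8% and 24.0%, a difference of −6.80 points. These sets started from lower levels, so the size of their change cannot be set directly against that of the members.

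**Figure D1:**
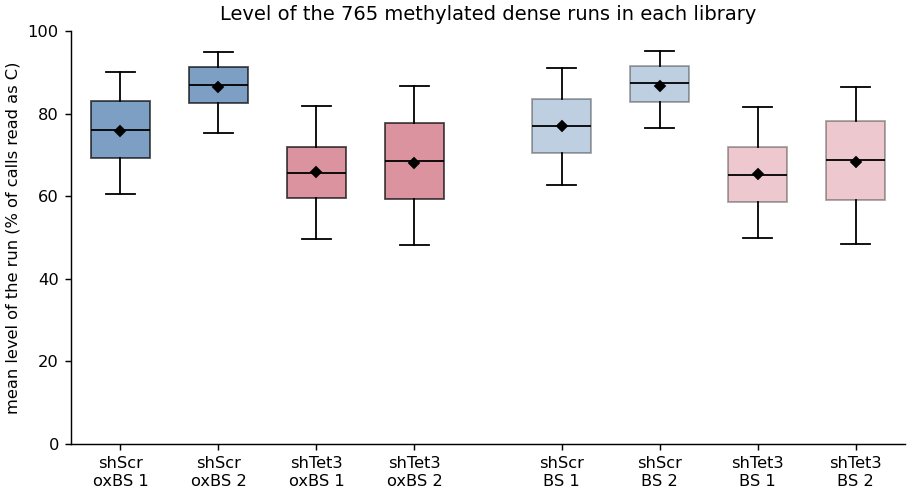
Level of the 765 methylated dense runs in each of the 8 libraries, in percent of calls read as C (y axis). Boxes span the quartiles with the median as a line, whiskers reach the 5th and 95th percentile and diamonds are means. The shTet3 oxBS means of 65.8% and 68.1% lie under the shScr oxBS means of 75.9% and 86.4%, and the BS libraries, of which the shScr pair chose the runs, show nearly the same levels as their oxBS partners.

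Run by run, 577 of 765 members were called lower in shTet3 and 2 were called higher. A run was called when a likelihood-ratio test on its summed oxBS calls gave a q value under 0.01 over all 16328 dense runs and the pooled levels differed by over 10 points. Among all dense runs 6.95% were called lower and 0.0551% higher by this rule. Nearer in level to the members are the 658 dense runs from 40% to 70% in shScr BS, of which 389 (59.1%) were called lower. Both shTet3 libraries lay below both shScr libraries at 604 members (79.0%, against 22.3% of all dense runs) and above both at 2 (8.26% of all dense runs). When replicate number entered as a block, the members called lower also numbered 577, against 6.94% of all dense runs. The mean level was lower in shTet3 at 761 members.

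This likelihood-ratio test treats calls as independent and takes no account of the spread between replicates. With an overdispersion term (F test) and with limma on logit levels, no member and no other dense run was called (0% of 16328); at an unadjusted p under 0.05 the F test gave 68 members lower (1.67% of all dense runs) and limma 94 (3.55% of all dense runs), and neither gave a member that was higher. Leaving out shScr replicate 2 reduced the runs called lower to 339, and leaving out shScr replicate 1 raised them to 712.

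Each BS and oxBS pair is of the same DNA, so the shScr oxBS values were not independent of the choice of members. When the runs were chosen by shScr BS replicate 1 alone and the oxBS level of shTet3 was set against shScr replicate 2, the mean difference was −17.9 points over 601 runs. With the roles exchanged it was −7.92 points over 939 runs, with 387 called lower and 26 higher. Runs chosen by the shTet3 BS libraries instead numbered 298, and their oxBS level was 10.8 points lower in shTet3 (a difference of −10.8).

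The median change was −13.9 points, the quartiles were −18.0 and −10.5, and the full range was −33.6 to 15.9 (SD 5.90 over runs). Loss was partial at nearly every run, since 301 members kept a mean shTet3 oxBS level above 70% and 29 fell under 50%. Of the 186 members not called, 144 passed the q value but differed by 10 points or less.

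**Figure D2:**
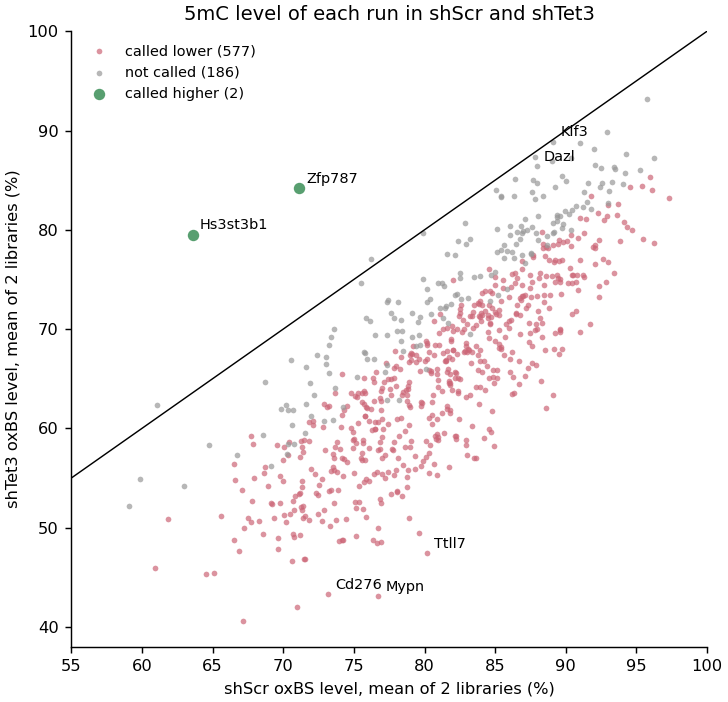
Each point is 1 of the 765 runs, with the mean oxBS level of 2 shScr libraries on the x axis and of 2 shTet3 libraries on the y axis, both in percent, and the line marks equal levels. The 577 runs called lower lie in a band under the line, and the 2 runs called higher, Zfp787 and Hs3st3b1, are the farthest above it.

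Within a run, the CpGs mostly moved the same way. At 429 runs every CpG was lower in shTet3 by the unweighted mean of the libraries. By pooled level, 91.9% of CpGs over all runs were lower. Tested one by one, 3380 of the 9685 CpGs (34.9%) were called lower, against 14.4% of the 612975 CpGs tested, and 19 were called higher, against 0.0819%. The 612975 CpGs were of any level. Among CpGs each above 70% in shScr BS, 33.8% were called lower in runs of 10 or more. The share was 38.5% in runs of 1, 39.5% in runs of 2 to 4 and 39.4% in runs of 5 to 9. A member run held a median of 4 CpGs called lower, and 60 members held none called in either direction. The SD of the change among CpGs of one member run had a median of 7.69 points. Without shScr replicate 2 the CpGs called lower numbered 1328 and those called higher 82, without shTet3 replicate 1 1949 were lower, and without shScr replicate 1 7 were higher. No CpG was called by the F test.

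The 8 largest falls lay in 3 coding exons, 1 intron and 4 intergenic places. The 11 CpGs of the Mypn run (myopalladin, a protein of the muscle sarcomere), in exon 16 of 19 coding exons, averaged 71.1% and 82.3% in the shScr oxBS libraries and 34.2% and 52.0% in the shTet3 oxBS libraries. Of these CpGs 10 were called lower, and the groups of the run did not overlap. Its pooled level fell by 32.5 points (q = 2.87e-95). The BS libraries, of which the shScr pair chose the run, read 60.9% and 79.7% in shScr, against 55.6% and 58.5%.

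The run 129106 bp from Ttll7 stood at 78.5% and 81.9% in shScr oxBS and at 48.2% and 46.6% in shTet3 oxBS. Its sequence, printed above, matched 469 other places in the genome at 90% identity or more, so its reads cannot be assigned to this place with certainty. Cd276, which encodes an immune checkpoint protein, went from 64.9% and 81.4% to 49.4% and 37.1% over 11 CpGs of its second of 7 coding exons. At Odz3, a teneurin of neuronal surfaces, 13 CpGs in a coding exon went from 74.4% and 79.4% to 44.4% and 52.6%. The intronic run of Trub1, a pseudouridine synthase, went from 86.5% and 90.8% to 49.1% and 74.98%, so the shTet3 libraries differed from each other by more than the shScr libraries did. The other 3 of the 8 largest falls were intergenic, nearest to Gm9881 (11434 bp), Cryba4 (147597 bp) and 3830408C21Rik (88101 bp), with pooled falls of 27.6 to 28.3 points. That near 3830408C21Rik was −10.6 points and not called without shTet3 replicate 2. In all 8, both shTet3 oxBS libraries were below both shScr oxBS libraries, which the choice of these runs required.

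Both runs called higher lie in the last coding exon of their gene. The Zfp787 run (a zinc finger gene) averaged 62.1% and 80.1% over 22 CpGs in shScr oxBS and 85.9% and 82.5% in shTet3 oxBS, a pooled gain of 14.1 points. Of its CpGs 9 were called higher and none lower. Without shScr replicate 1 the gain was 3.04 points and the call was lost, and the BS libraries read 68.7% and 77.4% in shScr, against 74.3% and 83.9%.

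The second Zfp787 run did not share this gain. Its 20 CpGs stood at 81.1% and 82.0% in shScr oxBS and at 71.3% and 83.8% in shTet3 oxBS, with 6 CpGs called lower and 1 higher. The pooled difference between shRNAs was −4.49 points.

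At Hs3st3b1, a heparan sulfate sulfotransferase, the 11 CpGs averaged 54.5% and 72.7% in shScr and 75.4% and 83.6% in shTet3, a pooled gain of 16.7 points that shrank to 6.79 points without shScr replicate 1. This 82 bp sequence has a copy in the paralog Hs3st3a1 on the same chromosome with 96.3% identity, so that reads may be split between them. The BS libraries read 67.8% and 88.9% in shScr, against 69.2% and 77.6%. For both runs the BS values are a description, since shScr BS chose the members.

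The 5 members whose oxBS level moved least all had both shTet3 oxBS libraries between the shScr oxBS libraries. Zfp777 averaged 75.6% and 84.1% in shScr oxBS and 77.4% and 82.0% in shTet3 oxBS over 19 CpGs. Klf3, a Krüppel-like transcription factor, stood at 85.2% and 93.0% against 86.6% and 91.2%, and Snrnp70, a core protein of the spliceosome, at 77.4% and 98.2% against 84.8% and 89.9%. Each of these 3 runs kept its level within the range of the controls. Near Abcd2, 7669 bp away, the mean of CpG percents differed by −0.822 points and the pooled level by 4.91 points, so the sign there depended on the weighting. The promoter run of Zfp865, a zinc finger gene, lies at a transcript start inside the gene, not at its outermost annotated start. It read 63.2% and 89.2% in shScr and 78.2% and 75.9% in shTet3.

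**Figure D3:**
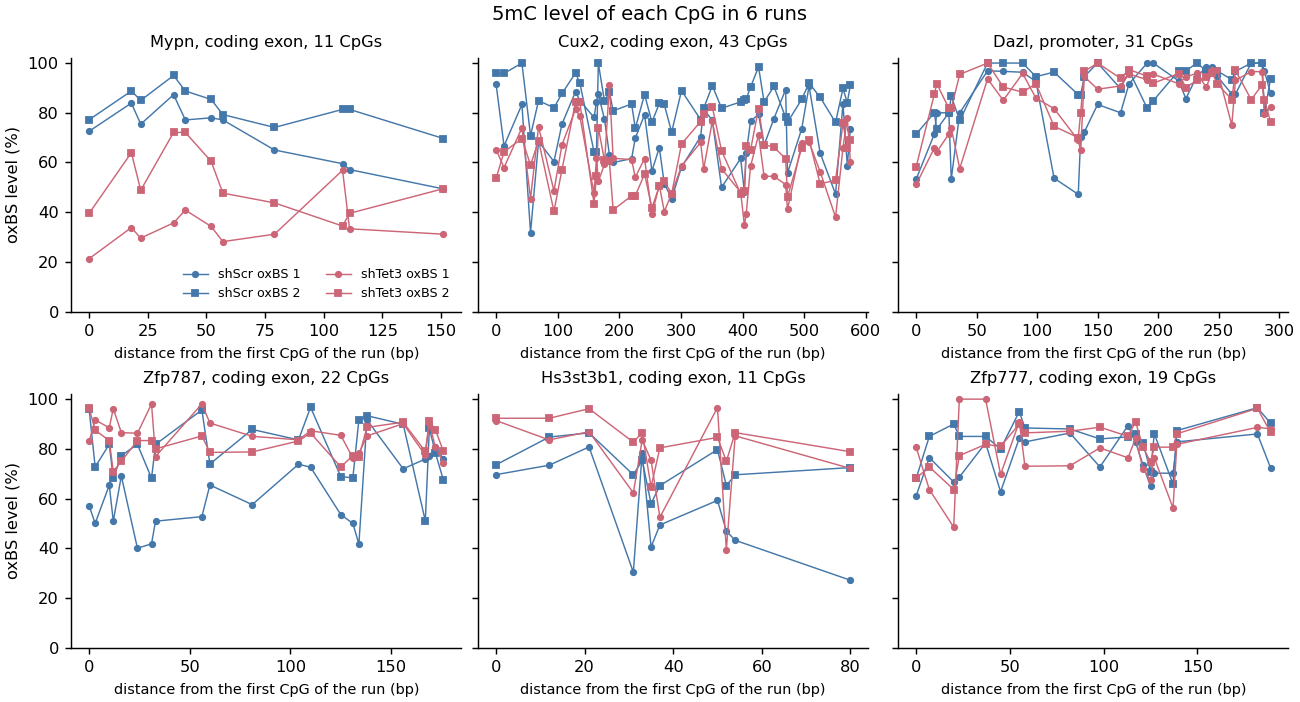
oxBS level in percent (y axis) of each CpG in 6 runs against its distance in bp from the first CpG of the run (x axis), with 1 line for each oxBS library. Both shTet3 lines lie under both shScr lines at 10 of the 11 CpGs of Mypn, and the lines of the shRNAs cross in Dazl and Zfp777. At Zfp787 9 CpGs and at Hs3st3b1 6 CpGs were called higher.

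The members lay in different parts of genes from other dense runs. Promoters were taken from 1 kb upstream to 0.5 kb downstream of any protein-coding transcript start, also one inside a gene. Coding exons held 511 members (66.8%) but 11.2% of all dense runs. Promoters held 61 members (7.97%) but 74.3% of all dense runs. Put the other way round, 28.0% of dense runs in coding exons were methylated and 0.503% of those in promoters. A further 96 members were intergenic, 74 intronic, 16 in non-coding genes and 7 in UTR exons. The median distance to the nearest protein-coding start site was 10990 bp for members and 221 bp for the other dense runs.

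All location classes had both shTet3 libraries below both shScr libraries. In coding exons the oxBS level was 77.1% and 87.5% in shScr and 67.5% and 70.4% in shTet3, a change of −13.3 points. Intergenic members went from 72.1% and 83.1% to 61.2% and 60.4% (−16.8 points), intronic members changed by −15.9 points and promoter members by −14.3 points. The gap between coding exon and intergenic runs was 4.98 and 4.44 points in shScr and 6.28 and 10.1 points in shTet3. This gap widened by 3.46 points, and the values of the shRNAs did not overlap (two-sided exact permutation p = 0.33, the smallest possible). The change of promoter members differed from that of the other members by −0.113 points (p = 0.67 by the same exact test).

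**Figure D4:**
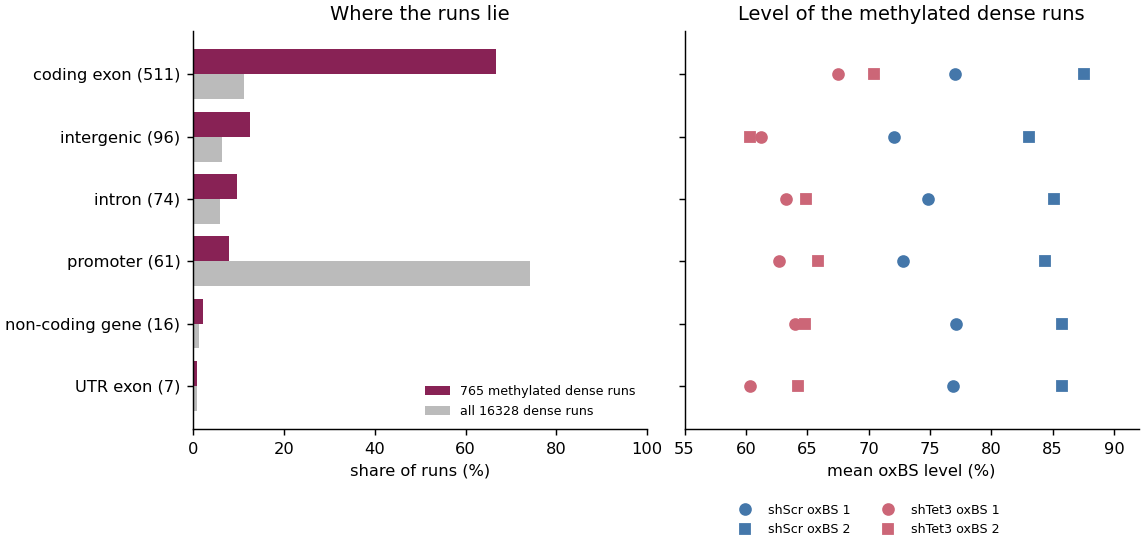
Left, share of runs in percent (x axis) in each location class for the 765 methylated dense runs and for all 16328 dense runs, with the number of members in brackets. Right, mean oxBS level in percent of the members of each class in the 4 libraries. Coding exons hold 66.8% of members but 11.2% of all dense runs, and in every class both shTet3 libraries lie left of both shScr libraries.

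Members in coding exons lay less often in the first coding exon than unmethylated runs did, while the shares in the last were close. Of the 477 members in genes with several coding exons whose reading frame could be followed, 36 (7.55%) were in the first coding exon and 147 (30.8%) in the last. Of 503 dense coding-exon runs under 10% in shScr BS, 47.7% were in the first and 27.6% in the last. Genes with a single coding exon, left out of these shares, held 27 of 504 members and 143 of 646 unmethylated runs. The median coding exon was 361.5 bp for members and 739 bp for the unmethylated runs.

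The CpGs also fell differently in the reading frame. The C was the first base of a codon, where CG begins an arginine codon, at 38.3% of 5738 CpGs in members and at 22.9% of 11561 CpGs in the unmethylated coding runs. It was the second base at 21.8% and 33.5%, and the last base at 39.9% and 43.6%. The change in oxBS level was −12.5, −13.1 and −13.6 points at codon positions 1, 2 and 3. These shares describe the sets and were not tested.

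In sequence, members were looser and poorer in GC than other dense runs. The mean distance between neighbouring CpGs had a median of 15.1 bp (9.22 bp in other dense runs), the GC content 61.8% (70.3%), the observed over expected CpG ratio 0.784 (0.975) and the number of CpGs 11 (16). Another copy in the genome was found for 65 members (8.50%) and for 2.01% of other dense runs. These 65 runs changed by −15.9 points and the other 700 by −14.1 points.

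Among members, the fall was larger where the shScr level and the GC content were lower. In steps of the shScr BS level, runs from 70% to 75% went from 72.2% to 56.3% in oxBS (148 runs), and runs from 90% upward went from 90.8% to 80.2% (94 runs). The mean change was −16.0, −16.2, −14.4, −12.5 and −10.6 points over the 5 steps, and the share called lower was highest, 86.5%, from 75% to 80% and lowest, 56.4%, from 90%. With the runs split by GC content into 4 sets, the mean change was −16.1 points in the lowest and −12.4 points in the highest. Across the 765 runs, Pearson's r with the signed change was 0.321 for the shScr BS level, 0.260 for GC content, −0.137 for CpG spacing and 0.122 for the number of CpGs. These are descriptions over runs that share libraries, and the BS level shares its DNA with the oxBS level.

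Crowding among the listed and covered CpGs was examined over single CpGs, each with its own shScr BS level above 70%, in runs of different size. CpGs of the genome that are not listed, or under the coverage minimum, may lie beside them. A CpG in a run of 1 is isolated only in this sense. Isolated CpGs (26406 in runs of 1) stood at 74.3% and 85.0004% in shScr oxBS and at 60.8% and 63.3% in shTet3 oxBS, a change of −17.5 points. The 10220 CpGs in runs of 10 or more stood at 77.3% and 87.0% and at 67.2% and 69.99%, a change of −13.6 points. Runs of 2 to 4 and of 5 to 9 lay between, with changes of −16.8 and −15.9 points. CpGs in dense runs exceeded isolated CpGs by 2.99 and 2.05 points in shScr and by 6.36 and 6.64 points in shTet3. The difference of 3.98 points was outside the spread of either pair, with a two-sided exact permutation p of 0.33, the smallest possible. The difference was 3.21 points in coding exons, 2.16 in introns and UTRs, 2.53 in intergenic sequence and 3.98 in promoters, without overlap between the shRNAs in any of them. Matched in steps of 5 points of the shScr BS level it was 3.53 points.

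**Figure D5:**
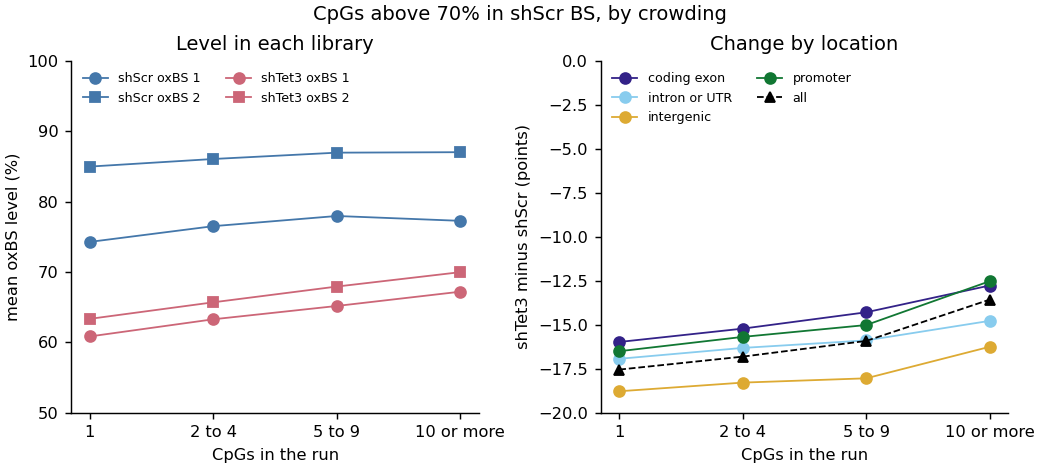
CpGs above 70% in shScr BS, grouped by the number of CpGs in their run (x axis). Left, mean oxBS level in percent in the 4 libraries; right, shTet3 minus shScr in percentage points for each location and for all CpGs (triangles). The change shrinks from −17.5 points for isolated CpGs to −13.6 points in runs of 10 or more, in the same order in every location.

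The difference between BS and oxBS, which is read as 5hmC, was small in these runs after knockdown. In shTet3 BS averaged 65.3% and 68.4% and oxBS 65.8% and 68.1%, a mean difference of −0.102 points whose replicates differed in sign (−0.510 and 0.306; two-sided exact permutation p = 1). BS was called above oxBS at 7 members (0.915%, against 0.153% of all dense runs). It was called below oxBS, where 5hmC cannot be the source, at 8 (1.05%, against 0.104%). Of the 658 dense runs from 40% to 70% in shScr BS, 1.82% were called above and 0.912% below. The F test called no member in either direction. At an unadjusted p under 0.05 it gave 3 of 765 members in each direction, and its share over all dense runs was not counted. In shScr, BS exceeded oxBS by 1.09 and 0.245 points, which is a description since shScr BS chose the runs.

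Most members at germline genes lay in promoters. The germline and meiosis list held 10 members, 9 of them in promoters. Of the 10, 8 were called lower, close to the 75.4% of all members and 77.0% of promoter members. Their median change was −14.8 points beside −13.9 over all members. Fkbp6, which is needed for meiosis in males, went from 83.2% and 84.7% to 60.2% and 68.1% over 22 promoter CpGs. Hormad2, a protein of the meiotic chromosome axis, went from 68.0% and 83.4% to 45.6% and 63.5%, but was not called without shScr replicate 2 (−8.45 points). Asz1, a gene of the germline piRNA pathway, went from 64.6% and 76.8% to 53.7% and 51.6%. The promoter of Tuba3b, an alpha tubulin of the testis, went from 75.2% and 91.1% to 64.4% and 71.3%. In these promoters both shTet3 libraries lay below both shScr libraries. The same held at 8 of the 10 germline members, 42 of the 61 promoter members and 79.0% of all members.

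Dazl, which encodes a germ cell RNA-binding protein, was not called. Its 31 promoter CpGs, the most of any promoter member, averaged 84.6% and 91.3% in shScr oxBS and 84.1% and 88.6% in shTet3 oxBS. The pooled difference was −2.41 points and the groups overlapped, and none of the 31 CpGs was called. The BS libraries gave 91.7% and 90.8% for shScr, then 78.3% and 89.9% for shTet3.

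The other promoter members with many CpGs differed widely. Those of Cux2, Zfp64 and Tnrc18 lie at transcript starts inside the gene, not at its outermost annotated start. A promoter run of Cux2, a homeodomain factor of cortical neurons, fell from 68.1% and 82.0% to 54.3% and 50.9% over 22 CpGs, and the coding-exon run of the same gene, with 43 CpGs, from 69.3% and 84.8% to 58.8% and 61.1%. The promoter run of 4922505E12Rik went from 76.6% and 86.9% to 55.7% and 67.4%. In contrast, promoter runs of Zfp64 (pooled difference −3.30 points) and Tnrc18 (−2.77 points) and upstream of Hsf5, a heat shock factor (−2.48 points), were not called.

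Large coding-exon members followed Cux2. Zfp775 went from 62.3% and 85.02% to 56.1% and 60.2% over 35 CpGs. Gtf2ird2, related to the transcription factor TFII-I, went from 78.7% and 91.2% to 57.2% and 72.0% over 29 CpGs, and F2r, the thrombin receptor, from 83.7% and 90.1% to 71.9% and 80.2% over 28 CpGs. Without shScr replicate 2 the pooled differences were −6.76 points at Zfp775 and −5.38 points at F2r and neither was called, and F2r was also lost without shTet3 replicate 1 (−8.30 points). In each run with all libraries, both shTet3 libraries lay below both shScr libraries, as at 396 of the 511 members in coding exons.

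Zinc finger genes were the largest listed family, with 33 member runs at 29 genes. Of these 33 runs 17 were called lower, beside 75.4% of all members, and 1, at Zfp787, was called higher, beside 0.261%. Their median change was −9.96 points beside −13.9 for all members. Zfp629 was among those called lower, from 90.5% and 92.4% to 84.7% and 77.6%, but not without shScr replicate 2 (−9.97 points) or shTet3 replicate 2 (−7.98 points). The difference of this family from the other members was not tested.

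All 6 members at neurotransmitter receptor genes were called lower, with a median change of −19.4 points, beside 75.4% called lower and a median of −13.9 points over all members. Among them were the glutamate receptor genes Grik5 (81.8% and 88.4% against 59.8% and 70.3%) and Grin2d (65.9% and 82.6% against 54.9% and 55.5%). At all 6, both shTet3 libraries lay below both shScr libraries, beside 79.0% of all members. Gabrr2, a GABA receptor gene, went from 73.6% and 85.02% to 54.5% and 60.1%, but its run has a copy of 94.4% identity in the neighbouring Gabrr1. The serotonin receptor Htr6 went from 66.5% and 69.4% to 59.4% and 50.6%, and Grik3 from 83.1% and 90.5% to 76.9% and 68.9%. Without shTet3 replicate 2 these were −9.65 and −9.97 points and not called. Of 9 runs at ion channel genes 7 were called lower, close to the 75.4% of all members, with a median change of −16.1 points, including the calcium channel Cacna1h (75.1% and 75.3% against 57.8% and 46.2%). Scn8a and Cacna1c passed the q value with pooled differences of −8.64 and −9.73 points and were not called.

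Genes that act in neural progenitors held 5 members, of which 4 were called lower, beside 75.4% of all members. The Wnt3a run, in the last coding exon of this signalling ligand, went from 80.4% and 77.2% to 60.8% and 47.4%. At Ntrk2, the receptor of brain-derived neurotrophic factor, an intronic run went from 79.6% and 84.1% to 71.0% and 67.0%. Notch1 was at 70.7% and 93.9%, and after knockdown at 68.3% and 71.6%, so its groups overlapped, and without shScr replicate 2 its difference was −2.15 points and not called. Runx1 had 2 runs, of which one in an early coding exon went from 80.7% and 92.4% to 77.6% and 72.7%. It was not called without shScr replicate 2 (−8.12 points) or shTet3 replicate 2 (−9.66 points). In its last coding exon the shScr libraries were far apart (56.1% and 89.9%) with the shTet3 libraries between them (64.9% and 69.6%).

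Imprinted genes held 3 members. A run within Meg3, a maternally expressed non-coding RNA, went from 79.7% and 92.3% to 67.8% and 63.6% over 13 CpGs, 9 of which were called lower. The paternally expressed Nnat held the other 2, one at its promoter (92.4% and 80.4% against 79.1% and 91.1%) and one in a coding exon (91.8% and 83.8% against 78.1% and 88.2%), and neither was called. The coding-exon run has a copy of 92.5% identity on chromosome 7. In both Nnat runs shScr replicate 1 was above replicate 2, although shScr replicate 2 was the higher at 728 of the 765 members.

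The remaining lists held few members. Tet3 itself had 3 runs in coding exons, with pooled differences of −7.52, −8.62 and −10.6 points, of which the last was called although its groups overlapped. Without shScr replicate 2 it was −3.52 points and without shTet3 replicate 1 −3.08 points, not called in either case. The run printed above stood at 85.9% and 92.4% in shScr and 78.6% and 81.0% in shTet3. Irx4, a homeobox gene, fell from 76.3% and 74.0% to 50.1% and 48.2% in an intron. Lamb2, a laminin chain, fell from 90.9% and 94.4% to 73.7% and 80.3%, while Col6a2, a collagen chain, differed by −7.53 points and was not called. The only protocadherin member, in Pcdhgc5, went from 81.2% and 77.6% to 62.1% and 71.2%, but was not called without shTet3 replicate 1 (−9.48 points). Of 28 pluripotency genes, 12 had a dense run and none had a methylated one. Methylated runs were rare throughout, with 765 of all 16328 dense runs and 0.503% of those in promoters.

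Several genes held more than one member. Of 692 genes named by a run, 66 held 2 or more, with 139 runs in all, and at 30 of these genes every run was called lower. The change differed by a median of 4.95 points between the runs of one gene. Bahcc1 held 4 runs, with pooled differences from −14.0 to −7.02 points, of which 2 were called. All 3 runs of Kif13a, a kinesin motor, were called, with −18.4, −16.1 and −12.4 points, and so were 2 of 3 in Fat1, an atypical cadherin, in Trio and in Spsb4.

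Runs close to the threshold varied on both sides of it. Just above 70% in shScr BS lay runs near Srebf2 and in Runx1 and Arhgef10l, with pooled differences of −5.96, 4.83 and −25.4 points. Just below lay runs in Zscan2, Zfp865 and 4921510H08Rik, with −12.6, −4.97 and −18.5 points.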

How the data were processed

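According to the methods and labels, the authors trimmed reads with Trim Galore, aligned them to mm9 with Bismark and named methylKit for differential methylation. The files the authors deposited give, per CpG, its coverage (a whole-number count of calls) beside the percent read as C and as T, without normalization. All list the same 757812 CpGs, with no coverage under 5. Libraries held 42516767 to 61865967 calls (median coverage 43 to 54), and member runs a median of 644 to 801. Calls can come from PCR copies of one molecule, so tests on calls cover counting error only.

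Methylated calls were recovered as percent times coverage. Levels of a run are unweighted means over its CpGs, and pooled differences are between summed calls of each shRNA. The likelihood-ratio test (logistic regression on the shRNA, no overdispersion term) was run on all 16328 dense runs, with Benjamini-Hochberg adjustment, and likewise on 612975 CpGs with coverage of at least 10, X chromosome included. limma 3.58.1 was run on log2 ratios of methylated to unmethylated calls. The likelihood-ratio test was checked on simulated counts drawn without spread between replicates. That check cannot show how the test behaves with the spread seen between these libraries. limma was checked on simulated levels that had such spread. Mean levels were compared by two-sided exact permutation tests.

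Genes are those of GENCODE vM1 on NCBIM37, an intergenic run is named by its nearest protein-coding gene, and copies were searched with blastn 2.17.0 (90% identity over 80% of the run). The members, gene lists and tests were chosen with earlier results of these data known. Named are, by a rule that used those earlier results, the 5 runs with most CpGs, the 8 largest falls, the 5 smallest changes, the runs called higher, the 8 promoter runs with most CpGs, up to 5 per gene list (overlapping or within 5 kb) and 3 on each side of the threshold; genes with 3 or more runs were added after their values were seen.

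A BS library and the oxBS library of its number share their DNA. The deviations of such pairs from the group means correlated over all dense runs (r = 0.846 in shScr, 0.513 in shTet3), and the replicate block changed none of the counts of calls between them. Alternatives covered coverage, gaps, run size, thresholds, tests, the choice of members and each replicate left out. Some runs that the naming rule covers are not reported here.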

Additional observations from a re-analysis of the deposited data

How the results depend on the processing

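The mean difference over the members stayed negative under all alternatives run. It moved beyond the spread between replicates only when runs were chosen by shScr BS replicate 2 and set against shScr oxBS replicate 1 (−7.92 points, 26 runs called higher), and ranged from −19.5 to −8.94 points with 1 replicate left out. The number of runs called lower was 348 at a coverage minimum of 20, 221 with gaps up to 30 bp, 935 with gaps up to 100 bp, 30 with at least 20 CpGs, 319 above 80% in shScr BS, 174 when chosen by shTet3 BS and 356 when chosen by all 4 BS libraries, each over another number of runs (468, 326, 1190, 42, 454, 298 and 515). It was 0 with the F test and 0 with limma, and 339 to 712 with 1 replicate left out. Runs called higher numbered 1 at a coverage minimum of 20, with gaps up to 100 bp, with at least 20 CpGs or without runs that have another copy, 0 above 80% and by the F test and limma, and 1 to 6 with 1 replicate left out. The F test called 0 CpGs lower and 0 higher; with 1 replicate left out 1328 to 4200 were lower and 7 to 82 higher.

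The shift from shScr to shTet3 in the level of dense minus sparse CpGs stayed positive throughout. For runs of 2 to 4 it was 3.004 points at a coverage minimum of 5. Chosen by shScr BS replicate 1 and set against oxBS replicate 2 it was 5.199, 4.02 and 2.76 points (against runs of 1, 2 to 4 and 5 to 9), and with the roles exchanged 4.40 and 3.76 points for the last 2. Coding exons alone gave 3.21, 2.45 and 1.52 points and intergenic CpGs alone 2.53, 2.04 and 1.79 points.

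For BS against oxBS in shTet3, runs with BS higher numbered 17 at a coverage minimum of 5, 3 at 20 and 0 by the F test, and those with BS lower 16 at a minimum of 5 and 0 by the F test. With 1 replicate left out they were 8 to 58 and 9 to 53. The mean difference changed sign to 0.0335 and 0.0496 points at coverage minimums of 5 and 20, and lay between −0.510 and 0.306 points with 1 replicate left out. The shTet3 minus shScr change of promoter members, less that of the other members, changed sign to 0.192 points at a coverage minimum of 20. With wider promoters it was 0.495 points, and with 1 replicate left out it ranged from −0.660 to 0.435 points. The cause of these changes was not tested.

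What same-numbered libraries of the 2 shRNAs have in common is not given in the labels. Over all dense runs their deviations correlated with r = 0.119, over the members with r = −0.170. With the replicate block 577 runs were called lower and 2 higher, and with the crossed replicate numbers also 577 and 2. By pairs of replicate numbers, the mean change was −10.1 and −18.3 points. The excess of dense over isolated CpGs rose from shScr to shTet3 by 3.37 and 4.59 points. The change of coding-exon members differed from that of the other members by 1.64 and 3.74 points. For intergenic members this difference was −0.856 and −5.02 points. BS minus oxBS in the second pair of shTet3 libraries was 0.306 points.

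Of the 58 named runs, 39 were called and none of them by the F test or limma. Calls were lost at 2 named runs without shScr replicate 1, 8 without shScr replicate 2, 3 without shTet3 replicate 1, 6 without shTet3 replicate 2 and 2 at a coverage minimum of 20. Signs changed at named runs that were not called. With unweighted means Zfp777 (−0.144 points), Abcd2 (−0.822) and Runx1 (−5.78) changed sign, and Zfp777 also at a coverage minimum of 20 (−0.0570). With 1 replicate left out, pooled differences ranged from −6.27 to 1.71 at Dazl, −3.51 to 4.30 at Zfp777, −6.85 to 2.91 at Klf3, −11.4 to 9.23 at Snrnp70, −14.7 to 15.9 at Abcd2, −12.8 to 16.7 at Zfp865, −12.5 to 2.78 at Zfp64, −8.69 to 3.66 at Tnrc18, −15.1 to 6.25 at Hsf5, −6.42 to 6.70 and −9.45 to 0.276 at the 2 Nnat runs, −23.2 to 19.6 at Runx1, −9.44 to 2.11 at the second Zfp787 run and −13.4 to 0.378 near Srebf2.

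Removal of soft-masked repeats was not run, because the reference sequence used here carries no repeat marks. At other coverage minimums, location was known only for runs that overlapped one of the main set.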

Other observations

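The X chromosome, left out by the choice of autosomal runs, held 284 dense runs, of which 14 (195 CpGs) were above 70% in shScr BS. Their mean oxBS level was 77.8% and 86.3% in the shScr libraries and 63.2% and 69.0% in the shTet3 libraries. Both shTet3 libraries lay below both shScr libraries at 12 of the 14, and the mean was lower at all 14. These runs were added after the data were seen, and no test was run on them.

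Among the autosomes, chromosome 5 held the most members (78 of 1195 dense runs) and chromosome 14, with 12 of 573, the fewest for its number of dense runs. The mean change per chromosome lay between −16.4 points (chromosome 9) and −12.9 points (chromosome 7).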
